A study of Rattus norvegicus with 6 samples.

Results

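The SLC25 family of mitochondrial carriers was examined in liver RNA from a high-fat diet model of dyslipidaemia. Its members were the protein-coding rows of the deposited gene table whose symbol begins with Slc25a and a number, leaving out the carnitine-acylcarnitine carrier Slc25a20. The rule found 44 genes among 32930 rows, of which 17713 were annotated as protein-coding. The study compared 3 livers of the HFD group (high-fat diet with 0.5% CMC-Na, the gavage vehicle) with 3 livers of the HTG group (the same diet with HTG, the herbal Huazhuo Tiaozhi granule), at 12 weeks by the labels. The labels name CMC-Na for the HFD group only. In the paper's rat experiment the diet lasted 12 weeks, and HTG was given in 0.5% CMC-Na during the later weeks only. The RNA-seq methods give no schedule of their own. Every animal of both groups thus ate the high-fat diet, and no library of animals on normal chow was analysed here. The treatment field of the labels writes HCG where their titles and design text write HTG. The labels name rats and the rat genome build mRatBN7.2, the RNA-seq methods name C57BL/6 J mice, and the deposited rows carry mouse Ensembl identifiers, so that each row was taken as a mouse gene. The labels give neither sex nor age. Whether the 3 libraries of a group came from separate animals is stated only by the design text, which counts 6 animals, and the p-values measure the spread between these libraries.

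SLC25 carriers are membrane proteins, most of them in the mitochondrial inner membrane, that exchange metabolites between the cytosol and the mitochondrial matrix. They are built from repeats of a similar stretch of sequence and made in the cytosol, and those of the inner membrane reach it through the TOM and TIM22 import machinery. In liver, they pass the ADP, ATP and phosphate of oxidative phosphorylation, the citrate that feeds lipid synthesis, the malate and aspartate that carry reducing equivalents and gluconeogenic carbon, and the ornithine of the urea cycle. Bulk RNA from whole liver was measured, so that fewer cells of a type and less RNA per cell cannot be told apart, and the mRNA level says nothing of how much a carrier transports.

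In the deposited gene annotation, 39 of the 44 carriers had a GO term for the mitochondrial inner membrane, 4 had one for the outer membrane and 1 had one for peroxisomes. They were spread over 19 chromosomes, with 4 on the X chromosome. Slc25a29 and Slc25a47 lay next to each other on opposite strands of chromosome 12, with 162 bases between them. Their levels differed widely, at means over the 6 libraries of 0.838 FPKM for Slc25a29 and 133 FPKM for Slc25a47 (fragments scaled by transcript length and library size, the only deposited value scaled by length). A further 3 family symbols of mouse, Slc25a41, Slc25a52 and Slc25a54, were not analysed here. The noncoding row Slc25a5-ps, annotated as a pseudogene of Slc25a5, held between 3 and 51 counts per library.

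Per length, the level of the carriers ran from a mean of 0.05 FPKM (Slc25a31 and Slc25a43) to a mean of 171 FPKM (Slc25a5). The 5 carriers with the highest mean FPKM over the 6 libraries, Slc25a5, Slc25a47, Slc25a39, Slc25a1 and Slc25a3, held 59.7% of the summed FPKM of the family. The liver-enriched carrier Slc25a47 had a mean of 133, the glutathione carrier Slc25a39 a mean of 109 and the citrate carrier Slc25a1 a mean of 72.2. The mean of Slc25a47 rests on HFD library 2 (348 FPKM), and Slc25a39 was above Slc25a47 in 4 of the 6 libraries and in the HTG mean (84.2 against 72.8 FPKM). In all, 18 carriers had a mean of at least 10 FPKM and 12 a mean under 1. The summed FPKM of the 44 carriers was 932, 1263 and 1078 in HFD libraries 1, 2 and 3 against 752, 647 and 628 in HTG libraries 1, 2 and 3. Every HTG library thus lay below every HFD library, and the sum took 0.211% to 0.295% of all FPKM in the HFD group and 0.123% to 0.157% in the HTG group. This sum is led by the few abundant members. Rows of the mitochondrial chromosome took 4.97% to 6.45% of the counts in the HFD libraries and 9.31% to 15.2% in the HTG libraries. Their part in the sums and in the values below was not tested.

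**Figure D1:**
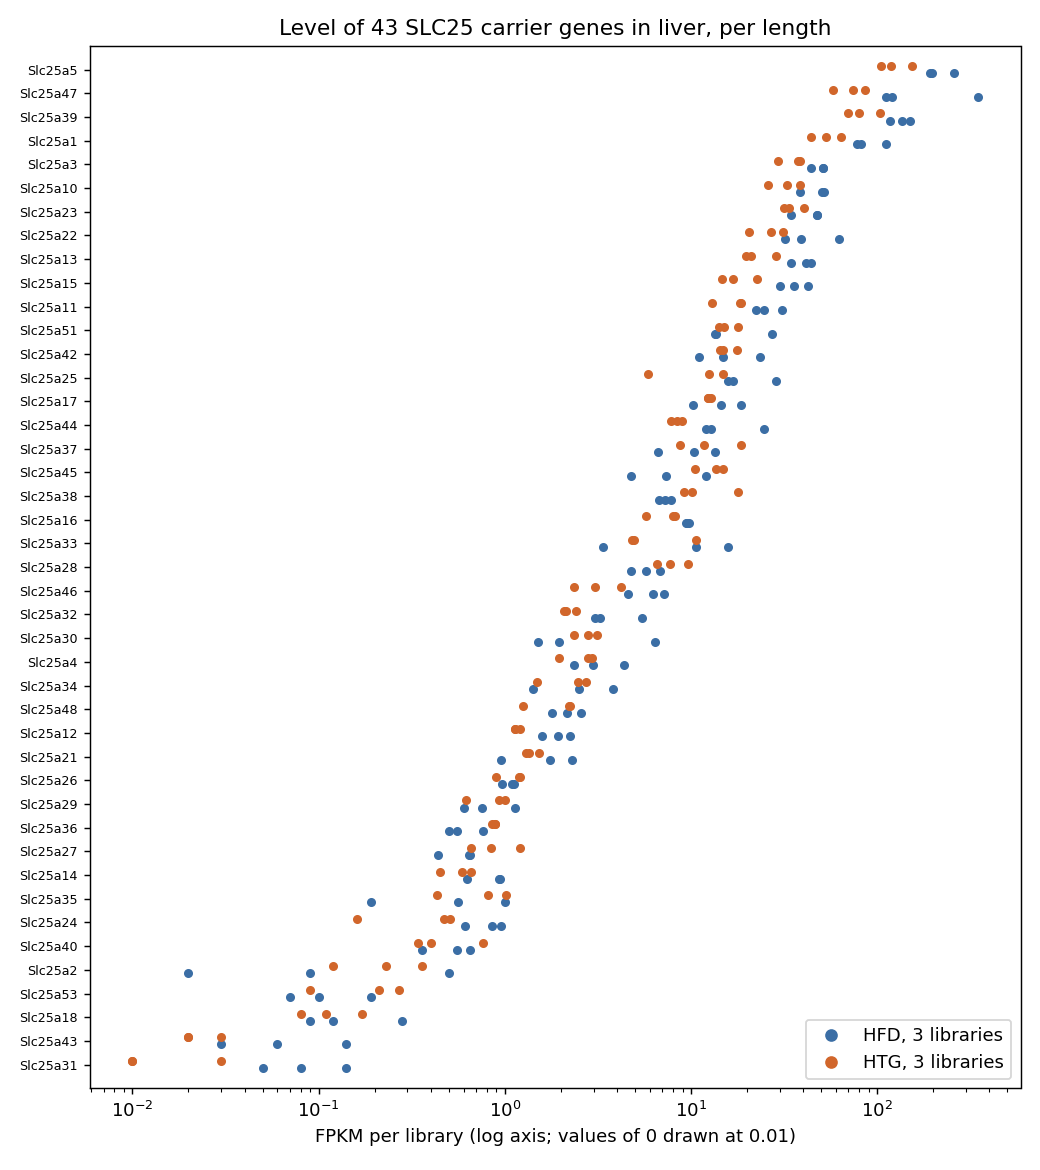
FPKM of 43 of the 44 carriers (rows, ordered by the mean of 6 libraries) on a log axis, with 3 HFD libraries in blue and 3 HTG libraries in orange, and values of 0 drawn at 0.01. The most abundant carriers, from Slc25a5 (mean 171) to Slc25a3 (mean 41.98), have their HTG points to the left of their HFD points.

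For comparisons between groups, counts were scaled to CPM (counts relative to each library's TMM-normalised total and given in the usual CPM unit) and tested by edgeR's quasi-likelihood test over the 18455 genes that passed its expression filter. Total counts per library lay between 50648778 (HTG library 3) and 90563477 (HTG library 2). Low counts were most frequent at multiples of 4 (4 occurred 6450 times, 3 and 5 occurred 2549 and 1757 times), so that 4 counts were read as 1 fragment. The limit of an empty gene, 3 fragments or 12 counts, lay between 0.123 and 0.256 CPM, which covers counting error only. Of the 44 carriers, 42 passed the filter, which keeps a gene that is high enough in either group. The germ-cell ADP/ATP carrier Slc25a31 had 8, 12 and 22 counts across the HFD libraries against 6, 0 and 0 in the HTG libraries, and Slc25a43 had 4, 8 and 18 against 6, 4 and 2, so both were at or near the limit and were not tested.

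Among the 42 carriers tested, 30 had a lower and 12 a higher fitted value in the HTG libraries. The lower ones were 71.4% of the carriers, against 48.4% of all genes tested and 53.7% of the protein-coding genes tested. The median log2 fold change of the carriers was -0.26, that of all genes tested was 0.03 and that of the protein-coding genes tested was -0.05. No carrier had an adjusted p under 0.05 in edgeR's quasi-likelihood test in either direction, where 0.00542% of all genes tested did so upwards and 0.00542% downwards. At an unadjusted p under 0.05, 14 carriers were lower (33.3%, against 12.4% of all genes tested) and 4 were higher (9.52%, against 12.3%). Of the protein-coding genes tested, 14.8% were lower and 11.5% higher at that p (edgeR). At an adjusted p under 0.1, 7 were lower (16.7%, against 5.43% of all genes) and 1 was higher (2.38%, against 5.41%). DESeq2 gave 10 lower and 1 higher carrier at its adjusted p under 0.05, where it called 7.1% of all genes lower and 5.91% higher. An unadjusted p under 0.05 together with an absolute log2 fold change over 1 was reached by 2 lower carriers (3.88% of all genes) and 0 higher ones (4.97% of all genes). The 2 were Slc25a24 and Slc25a47. The CPM of the groups did not overlap in 16 carriers that were lower (38.1%, against 15.5% of all genes) and in 3 that were higher (7.14%, against 16.5%). With 3 libraries a group, an exact two-sided permutation test of a single gene cannot go below p = 0.1.

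The counts were also taken by level. Among the 18 with a mean of at least 10 FPKM, 16 were lower, with a median log2 fold change of -0.62, and 11 were below the HFD group without overlap (61.1%, against 26.1% of all genes at that level). At an unadjusted p under 0.05, 10 of the 18 were lower (55.6%, against 23.0% of all genes at that level). Of the 24 tested with a lower mean, 14 were lower and 10 higher, with a median of -0.17. Of all genes tested, 58.9% were lower at a mean of at least 10 FPKM and 46.4% under it, with medians of -0.14 and 0.06. No test was made of the difference between the abundant and the scarce carriers.

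**Figure D2:**
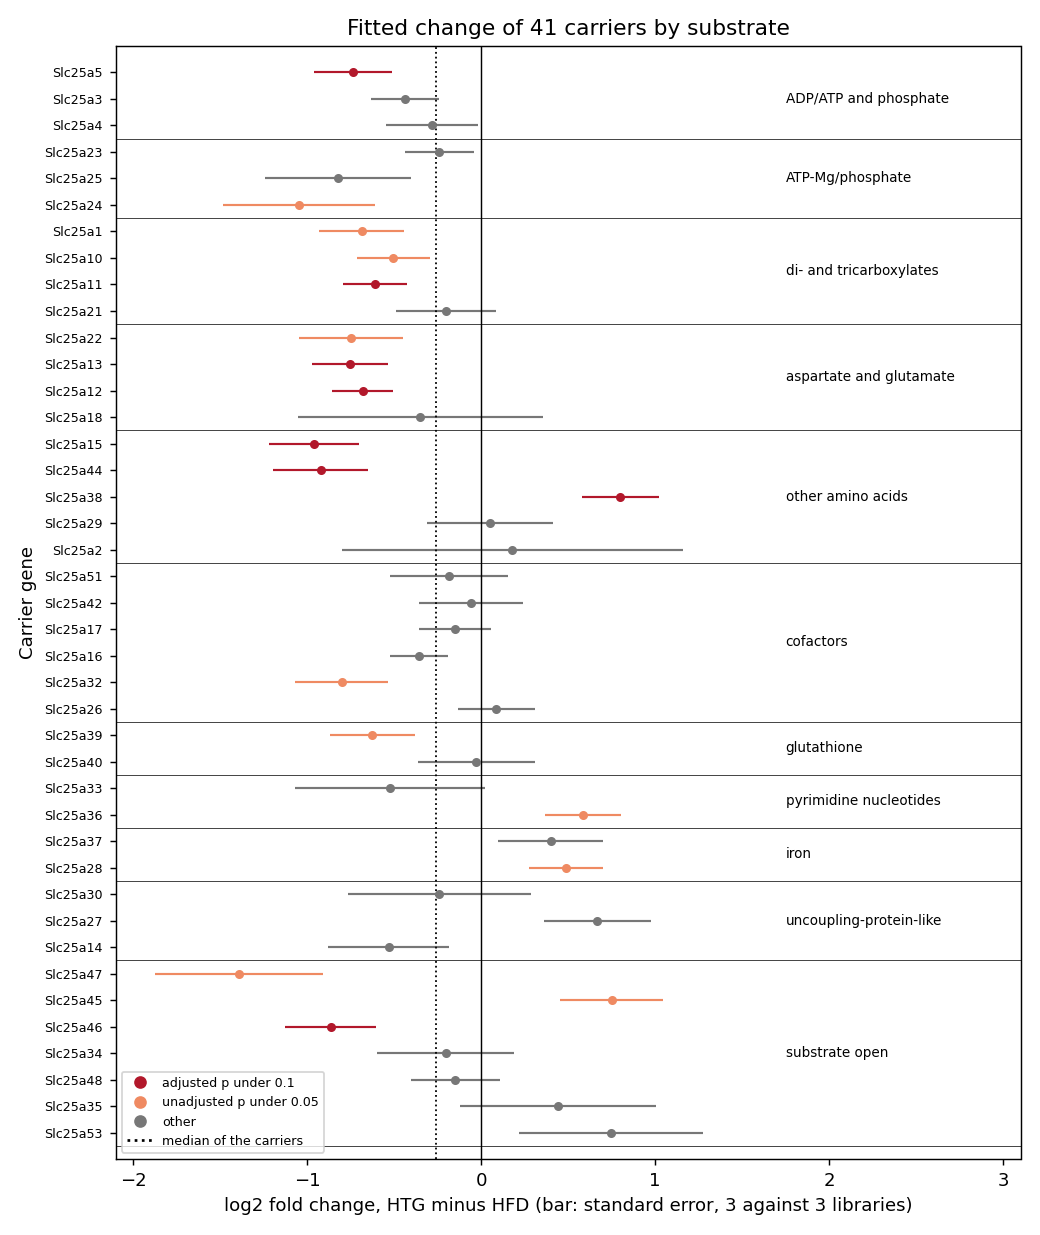
Fitted log2 fold change (HTG minus HFD) of 41 of the 42 carriers tested, grouped by substrate, with bars of 1 standard error from 3 against 3 libraries. Points left of 0 are lower in the HTG group, dark red marks an adjusted p under 0.1 (7 lower and 1 higher), orange marks an unadjusted p under 0.05, and the dotted line is the median of -0.26 over the 42.

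All 3 tested carriers of ADP, ATP and phosphate had lower fitted values in the HTG group, and 1 of them, Slc25a5, had an adjusted p under 0.1. Such an adjusted p was reached in that direction by 5.43% of all genes tested. Slc25a5 (ENSMUSG00000016319, chromosome X, 36059304 to 36062460, as the table lists it without a named build) encodes the main ADP/ATP carrier of growing and epithelial tissues. It had 324, 349.5 and 430.3 CPM in HFD libraries 1, 2 and 3 against 271, 192 and 199 in HTG libraries 1, 2 and 3. Every HTG value was below every HFD value, and the log2 fold change was -0.74 with a standard error of 0.22 (adjusted p = 0.0983, edgeR). Slc25a4, the ADP/ATP carrier of heart and muscle, was scarce in these livers, at 5.32 to 10.4 CPM, and its groups overlapped (log2 fold change -0.28, standard error 0.26). Per length, Slc25a5 exceeded Slc25a4 by 59.4 to 81.3 times in the HFD libraries and by 41.98 to 53.6 times in the HTG libraries. The phosphate carrier Slc25a3, which brings in the phosphate that ATP synthase uses, had 243, 313 and 287 CPM against 228, 207 and 188. Its groups did not overlap, while its log2 fold change of -0.44 (standard error 0.19) had an unadjusted p of 0.0532 and an adjusted p of 0.21 (edgeR).

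The ATP-Mg/phosphate carriers, which are regulated by calcium and set the total adenine nucleotide content of the matrix, were less uniform. Slc25a23, the most abundant of them, had 250.1, 201 and 253 CPM across the HFD libraries against 229, 176 and 191 in the HTG libraries, with overlapping groups and a log2 fold change of -0.24 (standard error 0.20). Slc25a25 ranged from 124 to 249 in the HFD group and from 45.7 to 134 in the HTG group. Its lowest value was that of HTG library 2 and its highest that of HFD library 2, and its log2 fold change of -0.82 had a standard error of 0.42. Slc25a24 was the scarcest, with 2.08, 3.24 and 3.29 CPM against 1.90, 1.61 and 0.640. Its log2 fold change of -1.04 (standard error 0.44, unadjusted p = 0.0426, adjusted p = 0.186, edgeR) was past 1 in size. Slc25a24 had only 30 counts in HTG library 3, and its log2 fold change ran from -1.37 to -0.70 over the alternative fits. Its unadjusted p stayed under 0.05 in 9 of the 14 alternatives that tested it. It did not under the replicate block, or without HFD library 2, HFD library 3, HTG library 2 or HTG library 3.

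All 4 carriers of di- and tricarboxylates had lower fitted values, and the groups did not overlap in 3 of them. The share of all genes tested that were lower without overlap was 15.5%, and 26.1% at a mean of at least 10 FPKM. Slc25a1 (chromosome 16, 17743087 to 17746083) exports citrate, from which the cytosol makes acetyl-CoA for fatty acid and cholesterol synthesis. Its CPM were 178, 186 and 244 across the HFD libraries against 123, 94.5 and 159 in the HTG libraries. The log2 fold change was -0.69 with a standard error of 0.24 (unadjusted p = 0.0222, adjusted p = 0.135, edgeR), and the adjusted p of DESeq2 was 0.0453. Slc25a10, the dicarboxylate carrier, exchanges malate or succinate for phosphate and had 132, 193 and 180.0 CPM against 122, 131 and 103. HFD library 1 and HTG library 2 were separated by little in this gene, and its adjusted p was 0.185 (log2 fold change -0.50, standard error 0.21, edgeR). Its unadjusted p was 0.0422 (edgeR) and stayed under 0.05 in 9 of the 15 alternative fits. Slc25a11 (chromosome 11, 70535022 to 70537884), the oxoglutarate/malate carrier, had 52.3, 52.6 and 66.0 CPM against 41.9, 38.8 and 31.4. Its log2 fold change was -0.61 with a standard error of 0.18 (adjusted p = 0.0981, edgeR). The oxodicarboxylate carrier Slc25a21, of lysine and tryptophan breakdown, overlapped between the groups at 5.14 to 11.2 CPM (log2 fold change -0.20).

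The aspartate/glutamate carriers gave the smallest adjusted p of the family. Both Slc25a12 (aralar) and Slc25a13 (citrin) export aspartate from the matrix in exchange for glutamate and a proton, and citrin is the liver form. Slc25a12 (ENSMUSG00000027010, chromosome 2, 71101407 to 71198093) had 14.2, 12.97 and 16.5 CPM across the HFD libraries against 8.93, 8.72 and 9.63 in the HTG libraries. Its group means were 14.6 ± 1.80 and 9.09 ± 0.476 CPM (SD, n = 3 per group), with a log2 fold change of -0.68 (standard error 0.18, adjusted p = 0.0731, edgeR). Slc25a13 (ENSMUSG00000015112, chromosome 6, 6041218 to 6217118) had 129.9, 175 and 169 CPM against 116, 79.2 and 85.9. Here too the groups did not overlap, and the log2 fold change was -0.75 with a standard error of 0.22 (adjusted p = 0.0919, edgeR). Slc25a13 was the dominant form in every library, by 17.4 to 26.2 times over Slc25a12 per length. The glutamate carrier Slc25a22, which moves glutamate with a proton, had 233, 411 and 194 CPM against 173, 185 and 142. HFD library 2 was far above the rest in this gene. The log2 fold change was -0.75 with all libraries (standard error 0.30, unadjusted p = 0.0358, edgeR) and -0.36 without HFD library 2 (unadjusted p = 0.147). Its relative Slc25a18 was near the limit of an empty gene, with 13 to 37 counts per library, and shared its span with Atp6v1e1 on the opposite strand, which held 41819 counts in all against 120 for Slc25a18.

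The malate-aspartate shuttle, which moves the reducing equivalents of cytosolic NADH into the matrix, needs Slc25a11, an aspartate/glutamate carrier and 4 enzymes, so the enzymes were set beside the carriers. All 3 carriers and all 4 enzymes were below the HFD group without overlap and had an unadjusted p under 0.05, and 5 of the 7 had an adjusted p under 0.1 (edgeR). Of all genes tested, 15.5% were lower without overlap, 12.4% at an unadjusted p under 0.05 and 5.43% at an adjusted p under 0.1. All of the 7 except Slc25a12 had a mean of at least 10 FPKM. At that level, 26.1% of all genes were lower without overlap and 23.0% at an unadjusted p under 0.05. DESeq2 gave 5 of the 7 an adjusted p under 0.05, against 7.1% of all genes in that direction. Got1, the cytosolic aspartate aminotransferase, had 206, 497 and 201 CPM across the HFD libraries against 152, 59.4 and 101 in the HTG libraries, a log2 fold change of -1.53 (standard error 0.45, adjusted p = 0.0936, edgeR). The HFD mean of Got1 rests in part on HFD library 2. Got2, its mitochondrial counterpart, had a log2 fold change of -0.56 (standard error 0.24, adjusted p = 0.195, edgeR). The malate dehydrogenases Mdh1 (cytosol) and Mdh2 (matrix) had -0.76 (standard error 0.23, adjusted p = 0.0984) and -0.50 (standard error 0.21, adjusted p = 0.194, edgeR). Without HFD library 2 the unadjusted p stayed under 0.05 in 2 of the 4 enzymes, as it did with any other single library left out except HTG library 1, where it did in all 4.

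**Figure D3:**
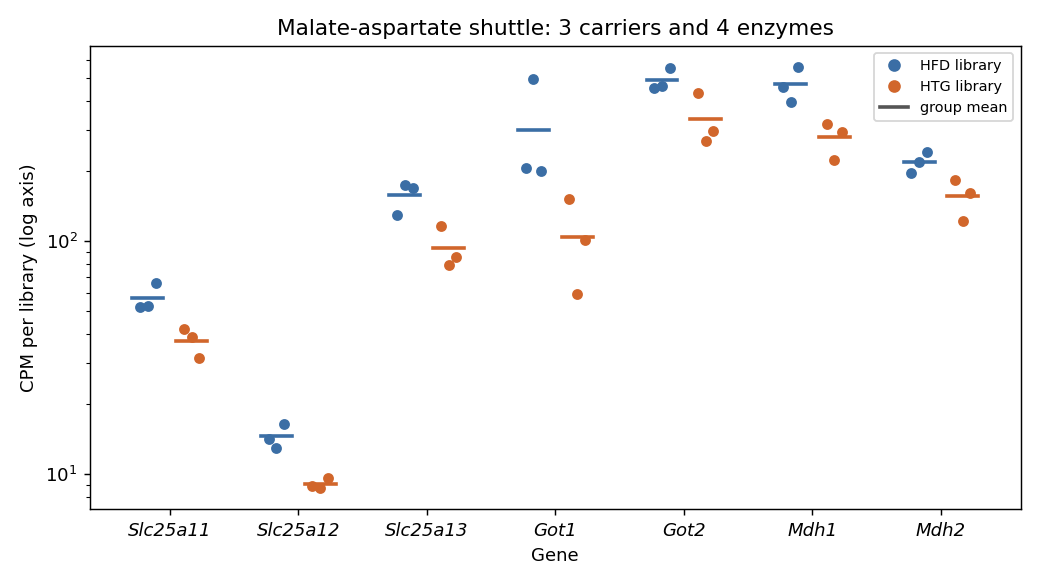
CPM per library (log axis) of the malate-aspartate shuttle carriers Slc25a11, Slc25a12 and Slc25a13 and its enzymes Got1, Got2, Mdh1 and Mdh2, with HFD libraries in blue, HTG libraries in orange and lines at the group means. In all 7 genes the 3 HTG points lie below the 3 HFD points, and in Got1 HFD library 2 (497 CPM) stands above the other HFD libraries.

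Carriers of other amino acids went in both directions. Slc25a15 (ENSMUSG00000031482, chromosome 8, 22865567 to 22888613) brings ornithine into the matrix and takes citrulline out for the urea cycle. It had 169, 263 and 202 CPM in HFD libraries 1, 2 and 3 against 137, 81.3 and 108 in HTG libraries 1, 2 and 3. The means were 211 ± 47.5 and 109 ± 27.7 CPM (SD, n = 3 per group), with a log2 fold change of -0.96 (standard error 0.26, adjusted p = 0.0792, edgeR) and the smallest adjusted p of the family in DESeq2, 0.00588. Slc25a44 (chromosome 3, 88317805 to 88332446), which carries branched-chain amino acids, had 43.1, 50.6 and 88.9 CPM against 30.0, 31.8 and 34.6. The HTG libraries were close together in this gene, while HFD library 3 was well above the other HFD libraries, and the log2 fold change was -0.92 with a standard error of 0.27 (adjusted p = 0.0939, edgeR), or -0.55 without HFD library 3.

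Slc25a38 (ENSMUSG00000032519, chromosome 9, 119939440 to 119953570) was the only carrier that was higher at an adjusted p under 0.1 in edgeR. It supplies the glycine from which mitochondria start haem synthesis. Its CPM were 21.3, 20.5 and 20.02 across the HFD libraries against 30.0, 48.5 and 29.1 in the HTG libraries, a log2 fold change of 0.80 (standard error 0.22, adjusted p = 0.0833, edgeR). HTG library 2 lay well above the other HTG libraries, and without it the log2 fold change was 0.52. The basic amino acid carrier Slc25a29 and the second ornithine carrier Slc25a2 were scarce and overlapped between the groups, at 1.57 to 3.30 and 0.0418 to 0.780 CPM.

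Both iron carriers of the inner membrane, the mitoferrins, had higher fitted values in the HTG group. Slc25a28 (mitoferrin 2) had 21.4, 28.4 and 17.9 CPM across the HFD libraries against 26.4, 35.5 and 33.1 in the HTG libraries. The groups overlapped, and its log2 fold change of 0.49 (standard error 0.21) had an unadjusted p of 0.0491 and an adjusted p of 0.2 (edgeR), and the unadjusted p stayed under 0.05 in 8 of the 15 alternative fits. Slc25a37 (mitoferrin 1), the form of developing red cells, had 62.1, 44.5 and 81.8 CPM against 56.3, 111 and 81.3, with overlapping groups (log2 fold change 0.40, standard error 0.30). The summed level of 5 erythroid markers overlapped between the groups, at 234 to 422 CPM in the HFD libraries and 258 to 484 in the HTG libraries, with HTG library 2 highest as it was for Slc25a37. The 5 markers differed in direction. The alpha-globin genes Hba-a1 and Hba-a2 had log2 fold changes of 0.86 (unadjusted p = 0.0593, edgeR) and 0.78 (unadjusted p = 0.0701), with their highest CPM in HTG library 2 (195 and 118), where Slc25a37 and Slc25a38 were highest too. The beta-globin genes Hbb-bs and Hbb-bt had -0.50 and -0.14 with overlapping groups, and Alas2, the erythroid enzyme that joins glycine to succinyl-CoA, had -0.49 without overlap (standard error 0.18, unadjusted p = 0.0238, adjusted p = 0.139, edgeR). The part of red cell RNA in the levels of these carriers was not tested.

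Of the 7 cofactor carriers, 1 had an unadjusted p under 0.05 (12.4% of all genes tested were lower and 12.3% higher at that p). Slc25a51, which carries NAD, was the most abundant of the 7 per length, with 74.0, 167 and 75.3 CPM across the HFD libraries against 88.5, 76.7 and 113 in the HTG libraries. The high value was again that of HFD library 2, and the log2 fold change turned from -0.18 to 0.31 without it. The coenzyme A carriers Slc25a42 and Slc25a16 had log2 fold changes of -0.06 and -0.36, the second with non-overlapping groups (45.1, 51.8 and 45.9 CPM against 41.0, 38.9 and 31.7, unadjusted p = 0.0653, edgeR). Slc25a32, the carrier of folate and FAD, had 19.7, 36.5 and 18.7 CPM against 15.7, 12.8 and 14.5. It was the only one of the 7 with an unadjusted p under 0.05 (log2 fold change -0.80, standard error 0.27, unadjusted p = 0.017, adjusted p = 0.119, edgeR), and its adjusted p was 0.0498 in DESeq2. Without HFD library 2, the highest of the 6 for this gene, its log2 fold change was -0.43 (unadjusted p = 0.0433, edgeR). The peroxisomal carrier Slc25a17 and the S-adenosylmethionine carrier Slc25a26 overlapped between the groups, with log2 fold changes of -0.15 and 0.09. Slc25a26 shared its span with the more abundant Lrig1 on the opposite strand, and its counts are uncertain.

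Of the glutathione carriers, Slc25a39 (chromosome 11, 102293811 to 102298370) was by far the more abundant, 91.3 to 414 times Slc25a40 per length. Its CPM were 324, 454 and 376 across the HFD libraries against 305, 189 and 253 in the HTG libraries. The groups were separate, though HFD library 1 and HTG library 1 were close, and the log2 fold change was -0.63 with a standard error of 0.24 (unadjusted p = 0.0321, adjusted p = 0.16, edgeR). The unadjusted p of Slc25a39 stayed under 0.05 in 10 of the 15 alternative fits. Without HFD library 2 its log2 fold change was -0.49 (unadjusted p = 0.101, edgeR). Slc25a40 overlapped between the groups at 3.04 to 6.34 CPM (log2 fold change -0.03). The pyrimidine nucleotide carriers went in opposite directions. Slc25a36 had 7.31, 5.31 and 5.37 CPM across the HFD libraries against 8.72, 8.50 and 9.80 in the HTG libraries (log2 fold change 0.59, standard error 0.22, unadjusted p = 0.0258, adjusted p = 0.145, edgeR). Its unadjusted p stayed under 0.05 in 10 of the 14 alternatives that tested it. Slc25a33, the more abundant of this pair per length, was variable within both groups, with 19.9, 33.0 and 6.39 CPM against 21.6, 9.23 and 10.4 (log2 fold change -0.52, standard error 0.55).

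The uncoupling-protein-like carriers Slc25a30, Slc25a27 and Slc25a14 were scarce and none had an unadjusted p under 0.05. Slc25a27 did not overlap, with 2.58, 2.77 and 1.74 CPM across the HFD libraries against 3.58, 4.70 and 2.99 in the HTG libraries (log2 fold change 0.67, standard error 0.31, unadjusted p = 0.0609, adjusted p = 0.226, edgeR). Slc25a30 had 8.93, 32.3 and 6.95 CPM against 13.8, 10.6 and 16.4. The HTG libraries of this gene lay above HFD libraries 1 and 3 and far below HFD library 2, so that its log2 fold change was -0.24 with all libraries and 0.77 without HFD library 2 (unadjusted p = 0.0166, adjusted p = 0.162, edgeR).

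The 8 members listed with an open substrate held the largest change of the family. Slc25a47 (ENSMUSG00000048856, chromosome 12, 108801972 to 108822741) is a carrier found almost solely in liver. It had 356, 1151 and 334 CPM in HFD libraries 1, 2 and 3 against 277, 171 and 254 in HTG libraries 1, 2 and 3. All HTG values were lower than all HFD values, and the log2 fold change of -1.39 (standard error 0.49, unadjusted p = 0.02, adjusted p = 0.129, edgeR) was -0.56 without HFD library 2, with an unadjusted p of 0.0662. Slc25a46, an outer-membrane member tied to mitochondrial dynamics, had 33.6, 42.7 and 24.9 CPM against 24.6, 16.3 and 14.7. HFD library 3 and HTG library 1 nearly met, and the log2 fold change was -0.86 with a standard error of 0.26 (adjusted p = 0.099, edgeR). Slc25a45 had 20.3, 14.5 and 33.3 CPM against 31.0, 40.5 and 43.2, with overlapping groups (log2 fold change 0.75, standard error 0.30, unadjusted p = 0.0343, adjusted p = 0.166, edgeR). The log2 fold change of Slc25a45 was 1.13 without HFD library 3 and 0.51 without HFD library 2 (unadjusted p = 0.0916, edgeR). Its unadjusted p stayed under 0.05 in 11 of the 15 alternative fits. Slc25a34, Slc25a48, Slc25a35 and Slc25a53 overlapped between the groups, with log2 fold changes between -0.20 and 0.75. Of these, Slc25a35 and Slc25a53 shared their spans with Rangrf and Zcchc18 on the opposite strand, and whether the counting used strand is not given in the sources used here.

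**Figure D4:**
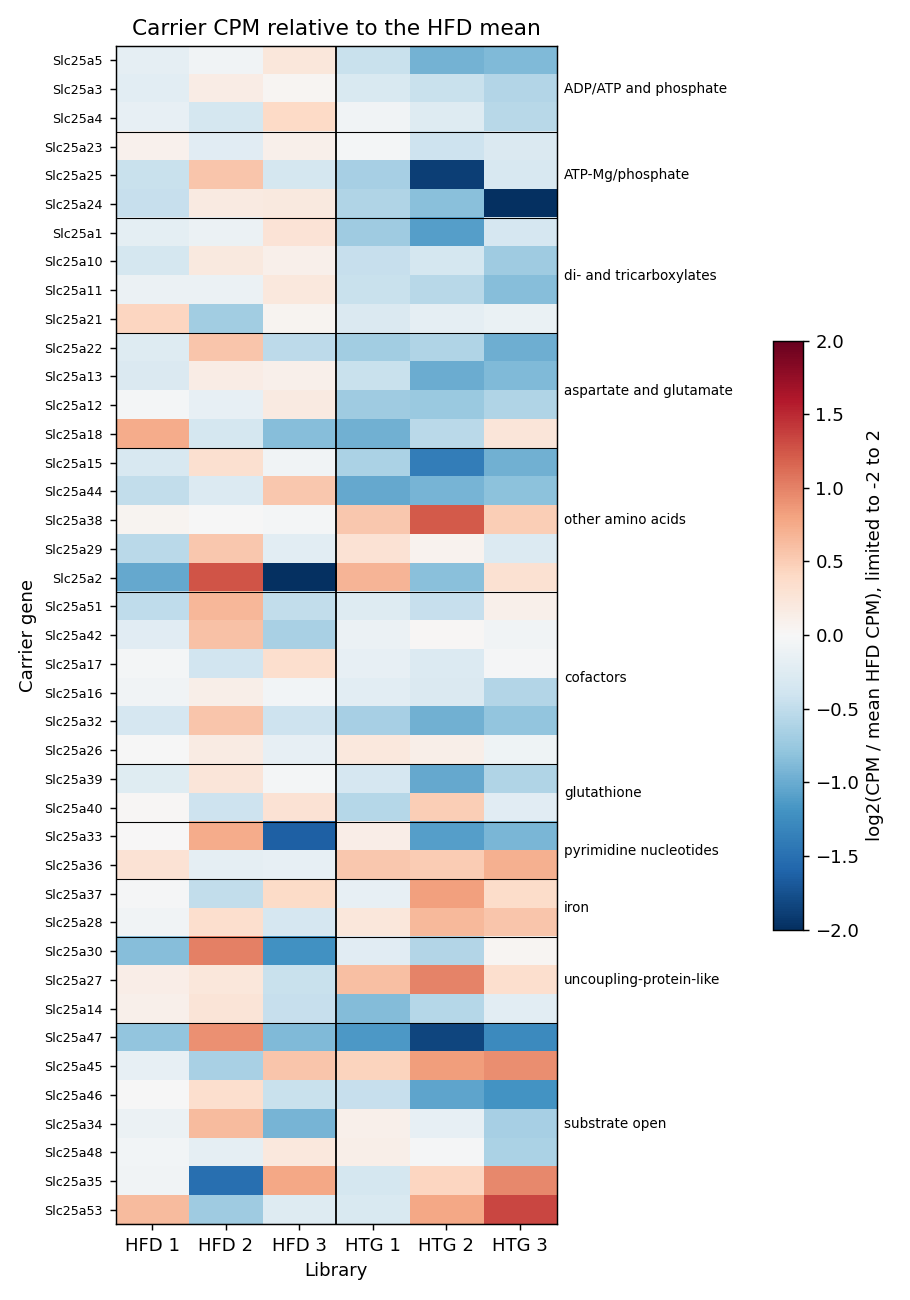
CPM of 41 of the 42 carriers tested in each library, as log2 of the ratio to the mean of the 3 HFD libraries (red higher, blue lower, colours limited to -2 to 2), with carriers grouped by substrate. The columns of all 3 HTG libraries are blue over most of the energy, carboxylate and aspartate carriers, while Slc25a38, Slc25a36 and Slc25a27 are red in all 3 HTG libraries.

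Single libraries weighed on several carriers. HFD library 2 had the highest CPM of the 6 libraries in 19 of the 42 carriers, HFD library 3 in 10 and HFD library 1 in 2. Among the 16 carriers that were lower without overlap, HTG library 1 was the HTG library nearest to the HFD group in 11. Without HFD library 2, 9 carriers were lower and 3 were higher at an unadjusted p under 0.05, in place of 14 and 4, and the median over the carriers was -0.33. Without HTG library 2 these counts were 8 and 2, and without HTG library 3 they were 10 and 2. Counts over all genes tested fell too, from 2288 lower and 2275 higher to 1881 and 2048 without HFD library 2. They were 1545 and 1541 without HTG library 2, and 1674 and 1770 without HTG library 3. At an adjusted p under 0.1, 8 carriers were lower and 1 was higher without HTG library 1, and 0 were called in either direction without any other single library. Of all genes tested, 1576 were lower and 1002 higher at that threshold when HTG library 1 was dropped. Dropping HFD library 1 gave 214 and 203 genes, and dropping HFD library 2 gave 7 and 9. Each of the other fits with a library dropped called 0 of all genes, so it could call no carrier. In 7 carriers the unadjusted p stayed under 0.05 in all 15 alternative fits, including each library left out. These were Slc25a5, Slc25a12, Slc25a13, Slc25a15, Slc25a44 and Slc25a46, which were lower, and Slc25a38, which was higher.

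**Figure D5:**
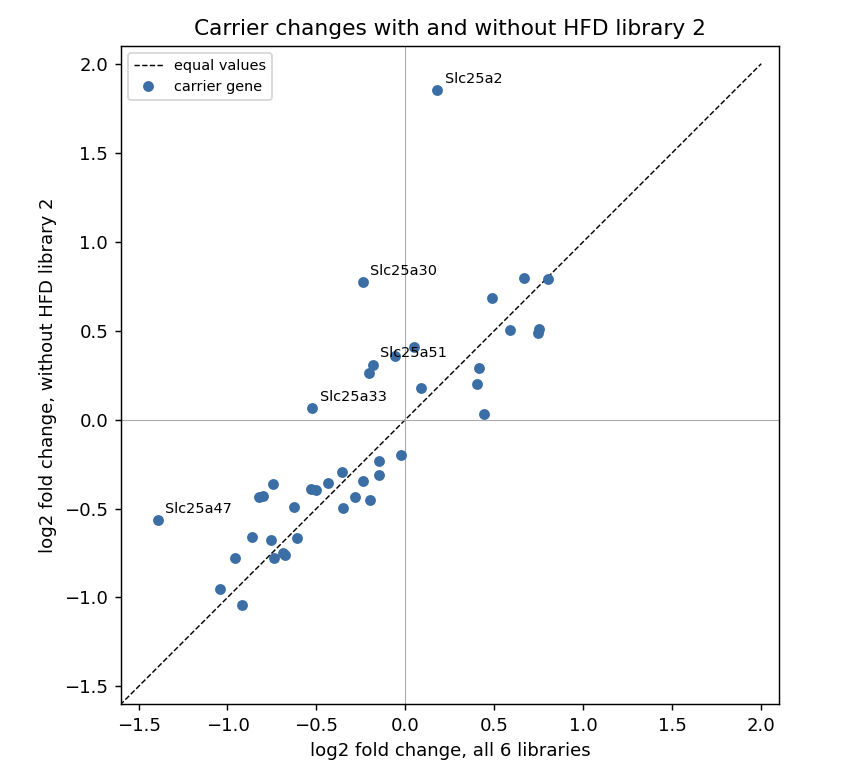
Log2 fold change (HTG minus HFD) of each carrier with all 6 libraries (horizontal axis) and without HFD library 2 (vertical axis), with the dashed line at equal values and names given where these differ by more than 0.48. Slc25a30 and Slc25a51 are among those that cross from below 0 to above 0, and Slc25a47 moves from -1.39 to -0.56.

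The SLC25 members that go under other symbols were lower where they were tested. Mtch1 and Mtch2, outer-membrane relatives of the carriers, had log2 fold changes of -0.58 (standard error 0.21, adjusted p = 0.142) and -0.51 (standard error 0.18, adjusted p = 0.139, edgeR), both without overlap (as were 15.5% of all genes tested in that direction). Ucp2, the uncoupling protein of macrophages and other tissues, had -0.31 (unadjusted p = 0.0874, edgeR), also without overlap, and Ucp1 and Ucp3 were at 0 in every HFD library and at no more than 0.213 CPM in the HTG libraries. Of 10 genes for the import of carriers, 3 were lower (against 12.4% of all genes tested) and 1 was higher (against 12.3%) at an unadjusted p under 0.05. The receptors Tomm20 and Tomm70a had log2 fold changes of -1.03 (adjusted p = 0.0691) and -0.66 (adjusted p = 0.129), and the TIM22 subunit Timm29 had -1.25 (adjusted p = 0.0606, edgeR). Timm10b, a small TIM22 subunit, was higher, with 12.96, 12.4 and 12.0 CPM across the HFD libraries against 23.1, 26.8 and 23.8 in the HTG libraries (log2 fold change 0.98, standard error 0.15, adjusted p = 0.0538, edgeR). Timm22 itself, the channel, had a log2 fold change of -0.31 with overlapping groups. Among 16 other mitochondrial transporters, 1 was lower and 0 were higher at an unadjusted p under 0.05, both below the shares of all genes tested (12.4% and 12.3%). It was Vdac1, the outer-membrane pore, with 157, 176 and 219 CPM against 89.0, 72.2 and 85.6 (log2 fold change -1.16, standard error 0.20, adjusted p = 0.0542, edgeR). The pyruvate carrier genes Mpc1 and Mpc2, which belong to another family, overlapped between the groups, with log2 fold changes of -0.01 and 0.18.

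Markers of the tissue were checked beside these values. The hepatocyte gene Alb was abundant in every library, with 57853, 66091 and 74503 CPM across the HFD libraries against 53506, 54429 and 55201 in the HTG libraries. It was lower without overlap, as were 15.5% of all genes tested (log2 fold change -0.28, unadjusted p = 0.33, edgeR). The summed level of 5 hepatocyte markers, most of it Alb, was 72488 to 89092 CPM in the HFD libraries and 70071 to 76273 in the HTG libraries, with Apoa2 higher and Cps1 lower at an unadjusted p under 0.05 (edgeR). Kupffer cell and leukocyte markers summed to 565 to 932 CPM in the HFD group and 392 to 663 in the HTG group, with Adgre1 and Cd5l of 9 markers lower at that p. For all these marker counts, the shares of all genes tested were 12.4% lower and 12.3% higher. Stellate cell markers summed to 139 to 200.1 against 115 to 168 CPM with 1 of 5 lower, endothelial markers to 39.8 to 85.9 against 65.7 to 104 with 0 of 4 at an unadjusted p under 0.05, and cholangiocyte markers to 85.3 to 106 against 59.5 to 131 with 1 of 5 lower and 1 higher. Markers of exocrine pancreas (up to 4.95 CPM in sum), skeletal muscle (up to 1.69) and adipocytes (up to 14.6, in HFD library 2 and nearly all of it Cidec) were near 0, and Pnlip, Ctrb1, Ckm, Myh4, Tnnt3 and Adipoq had no counts. The part of these markers in the carriers' values was not tested.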

How the data were processed

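Poly(A) RNA was sequenced from liver, with 3 HFD and 3 HTG libraries grouped by the labels' titles. The authors deposited estimated counts and FPKM per gene in 1 table, and the submitters' processing notes name HISAT2, StringTie, SAMtools and mRatBN7.2 without versions, roles or order. The table holds no columns of the authors' own comparisons. The deposited counts, treated as whole numbers, were filtered (filterByExpr), TMM-normalised and tested with edgeR 4.0.16 (quasi-likelihood, group only, Benjamini-Hochberg adjustment over 18455 genes) in R 4.3.3. Standard errors come from that fit. The RNA-seq methods of the study state no test. FPKM, as deposited, served only to compare genes with each other and for the sums over carriers.

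The carriers, their substrate groups, the related and marker lists and the call rules were chosen with earlier results of these data known. Full values per library were given for the most abundant carrier of each substrate group, for carriers with an unadjusted p under 0.05 and for those whose groups did not overlap. Of the carriers, 1 enters the counts and medians but is not reported by name here. Alternatives were DESeq2 1.42.0, all rows with any count, a minimum of 10 counts per library, size factors from DESeq2, upper-quartile scaling, a replicate block, each library left out, limma 3.58.1 on log2(FPKM + 0.1) where the mean reached 1 FPKM, counts divided by 4, and limma after removal of a trend on gene length. Total counts of 50648778 to 90563477 correspond to 12662194 to 22640869 fragments at 4 counts a fragment.

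The fits were tested on simulated counts (17783 genes passing the filter, 200 changed before it). At an adjusted p under 0.05, edgeR recovered 7.29% of the genes changed by 1 on the log2 scale and 61.9% of those changed by 2, with 11 unchanged genes called. DESeq2 recovered 31.3% and 78.4%, with 48 unchanged genes called.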

Additional observations from a re-analysis of the deposited data

How the results depend on the processing

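In simulated counts edgeR at an adjusted p under 0.05 recovered 7.29% of the genes changed by 1 on the log2 scale and DESeq2 31.3%, so a carrier without a call may still differ. The simulation changed only 200 genes, with noise drawn independently for each gene. In the data, 2288 genes were lower and 2275 higher at an unadjusted p under 0.05 (edgeR), so the simulated rates may not hold for the carriers. All 18 carriers with an unadjusted p under 0.05 kept their direction in every alternative that tested them (14 for Slc25a24 and Slc25a36, which are under the FPKM minimum, and 15 for the others), and 7 kept that p in all 15. The cause of the values below was not tested.

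At an adjusted p under 0.05, in place of 0 carriers in either direction, DESeq2 called 10 lower and 1 higher, and limma on FPKM called 1 lower. Of all genes tested, the main fit called 1 lower and 1 higher there, DESeq2 1310 and 1091, and limma on FPKM 552 lower. At an adjusted p under 0.1, in place of 7 lower and 1 higher, DESeq2 gave 12 lower, no filter gave 1 lower and 0 higher, the replicate block gave 0 lower and 0 higher, and limma on FPKM gave 0 higher. Of all genes tested, in place of 1002 lower and 999 higher, DESeq2 gave 1845 lower, no filter 665 lower and 638 higher, and limma on FPKM 935 higher. The replicate block called 0 of all genes in either direction, so it could call no carrier. Leaving out each library in turn gave 0 to 8 lower and 0 to 1 higher, against 0 to 1576 and 0 to 1002 of all genes tested. At an unadjusted p under 0.05, in place of 14 lower and 4 higher, limma on FPKM gave 2 higher, and leaving out each library gave 8 to 15 lower and 2 to 3 higher. Of all genes tested, limma on FPKM gave 1413 higher, and leaving out each library gave 1545 to 2866 lower and 1541 to 2134 higher. With an absolute log2 fold change over 1 as well, in place of 2 lower and 0 higher, the replicate block gave 0 lower, counts divided by 4 gave 1 lower, and leaving out each library gave 0 to 5 lower and 0 to 1 higher. Of all genes tested, in place of 716 lower and 917 higher, the replicate block gave 695 lower and counts divided by 4 gave 563 lower. Leaving out each library gave 590 to 1275 of all genes lower and 635 to 1169 higher. The median of the carriers was -0.39 with limma on FPKM, which holds 32 carriers, in place of -0.26 over 42, and -0.43 to -0.29 with each library left out.

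Of the related lists, at an unadjusted p under 0.05, the other SLC25 symbols had 1 higher without a filter and 1 lower under the replicate block, with 0 to 2 lower as each library was left out. Other transporters had 2 lower with DESeq2, with DESeq2 size factors and with limma on FPKM, and 1 to 4 lower with each library left out. Import genes had 1 to 2 higher and 2 to 3 lower, and shuttle enzymes 2 to 4 lower, with each library left out, and 2 shuttle enzymes were lower under the replicate block.

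Same-numbered HFD and HTG libraries deviated together with r of -0.08, -0.07 and 0.10 across genes, which are not independent, so the numbers were not taken as pairs. HFD library 2 correlated best with HTG library 1 (0.18), not with its own number.

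Direction turned in 13 carriers, none with an unadjusted p under 0.05. Slc25a42 had 0.034 under the replicate block and 0.068 with the length trend removed. Slc25a30 had 0.12 under the replicate block, 0.038 with limma on FPKM and 0.12 with the length trend removed, and Slc25a40 had 0.011 with upper-quartile scaling. With each library left out, log2 fold changes ran from -0.31 to 0.046 in Slc25a17, -0.73 to 0.23 in Slc25a18, -0.35 to 1.85 in Slc25a2, -0.45 to 0.072 in Slc25a21, -0.019 to 0.17 in Slc25a26, -0.16 to 0.41 in Slc25a29, -0.60 to 0.77 in Slc25a30, -1.05 to 0.062 in Slc25a33, -0.52 to 0.26 in Slc25a34, -0.39 to 0.14 in Slc25a40, -0.30 to 0.36 in Slc25a42, -0.34 to 0.050 in Slc25a48 and -0.39 to 0.31 in Slc25a51.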
